A study of Drosophila melanogaster with 2 samples.

Results

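The regions described here are the candidates ranked next below the reproducible peaks of CG9876. They were chosen by signal. The combined list of dm6 candidate regions was sorted from the highest signal to the lowest, every region that shared 1 bp or more with a reproducible peak was dropped, and as many of those left were kept, from the top, as the reproducible list holds. These regions, 1296 at promoters and 1137 elsewhere, make up 8.11% of the 30000 candidates and 8.92% of the 27267 candidates that overlap no reproducible peak. They are called next-ranked candidates here. They were set beside the reproducible peaks above them and the following candidates, which are the next block of the same size under the same overlap rule, so that all 3 sets hold the same number of regions.

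Chromatin immunoprecipitation sequencing (ChIP-seq) was done with an antibody to GFP on whole Drosophila melanogaster embryos, males and females together, aged 0 to 24 h. The transgenic line stably expresses CG9876 with GFP at the C terminus. Both samples belong to 1 group of 2 biological replicates, and their labels name no treatment. Control libraries were not used here. The labels do not state which promoter drives the transgene, and a whole embryo mixes all tissues and stages of the collection, so that binding in a few cells and weak binding in many cannot be told apart.

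CG9876 encodes a homeodomain protein of the paired-like class. Such proteins recognise short AT-rich sites, and many bind as a pair to a palindrome of TAAT and ATTA. Peak callers list candidate regions far below any threshold. The irreproducible discovery rate (IDR) then sets a cut from how well ranks repeat between replicates. In flies, housekeeping promoters often carry the DNA replication-related element (DRE), the site of the factor DREF, or the core promoter elements called Ohler motif 1 and Ohler motif 6, while the GAGA repeat is the site of the GAGA factor Trl.

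Stretches of 101 bases around 5 summits show the kinds of sequence in the set, chosen as the region of highest signal of each kind, with 1 chromosome arm left out and, where a motif defines the kind, with the motif inside the stretch printed. They are read from the RefSeq dm6 genome on the + strand, with the matched motif in capitals. The Rab40 promoter (chrX:12463116-12463216, summit 54 bp upstream of the TSS) held a DRE, and Rab40 encodes a small GTPase of the Rab family. The Cyt-c-p promoter (chr2L:16719683-16719783, summit 199 bp upstream) held none of the motifs searched, and Cyt-c-p encodes cytochrome c. The Pdp1 region (chr3L:7861170-7861270) lies in an intron of Pdp1, which encodes a PAR-domain bZIP factor of the circadian clock, and held a paired homeodomain site at its summit. The region nearest tHMG2 (chr3R:22494862-22494962) is intergenic, 1753 bp downstream of the TSS, and held a run of GAGA. The Tlk region (chrX:3777263-3777363) lies in a coding exon of the Tousled-like kinase gene, and its matches to GAGA and CGATA within 100 bp of the summit fall outside the stretch printed.
Rab40: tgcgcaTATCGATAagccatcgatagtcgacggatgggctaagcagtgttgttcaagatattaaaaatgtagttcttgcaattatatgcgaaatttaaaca
Cyt-c-p: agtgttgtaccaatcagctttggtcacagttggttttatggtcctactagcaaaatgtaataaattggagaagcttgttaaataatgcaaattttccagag
Pdp1: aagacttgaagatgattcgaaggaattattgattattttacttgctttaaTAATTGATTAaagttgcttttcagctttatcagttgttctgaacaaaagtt
tHMG2: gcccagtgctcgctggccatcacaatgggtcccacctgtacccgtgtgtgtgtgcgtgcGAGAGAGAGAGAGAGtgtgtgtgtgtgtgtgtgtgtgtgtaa
Tlk: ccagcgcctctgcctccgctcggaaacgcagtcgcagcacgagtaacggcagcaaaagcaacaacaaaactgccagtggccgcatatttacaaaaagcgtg

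The signal, in the authors' unit, chose the regions and is given only as a description. It ran from 57.6 to 85.4 in next-ranked candidates, with a median of 66.6. The lowest reproducible peak had a signal of 85.4, so the lists meet without a gap, and the reproducible list was exactly the top of the combined list. The split between reproducible peaks and next-ranked candidates is thus a cut on combined signal. The weakest reproducible peaks lay nearest Glg1, gukh and Ugt35D1, with signals of 85.42, 85.4 and 85.4. The strongest next-ranked candidates lay nearest Cyt-c-p, tmod (tropomodulin, which caps actin filaments) and Sys1 (a Golgi membrane protein), with signals of 85.38, 85.36 and 85.35. At the lower edge, par-1 (a polarity kinase), Spn (spinophilin) and Dora had 57.67, 57.67 and 57.64, and the first 3 left out, nearest pxb, yrt and mnb, had 57.64, 57.63 and 57.62. The median signal of the 100 weakest reproducible peaks was 1.03 times that of the 100 strongest next-ranked candidates.

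The authors' q-value was also continuous across the edge. It ran from 0.00183 to 0.0767 in next-ranked candidates with a median of 0.0234, and reached 0.00190 in reproducible peaks. A q-value of 0.05 or less was held by 1940 next-ranked candidates (79.7%), and a q-value of 0.01 or less by 648 (26.6%). In all, 4444 of the 30000 combined candidates had a q-value of 0.05 or less.

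The 20 strongest next-ranked candidates had signals of 84.9 to 85.4. Their summits lay at promoters in 9 cases, and 19 of the 20 were listed in both replicates. The Mtpbeta region (mitochondrial trifunctional protein, fatty acid oxidation) had signals of 38.5 in replicate 1 and 42.0 in replicate 2, with its summit 114 bp upstream of the TSS. The Ldh region (lactate dehydrogenase) had 44.9 and 37.3, 142 bp upstream. The whd region (carnitine palmitoyltransferase) had 32.0 and 49.6, 67 bp upstream, and the Coq7 region (ubiquinone synthesis) had 61.6 and 33.3, 18 bp upstream. The region nearest Adk3 (adenylate kinase) was intergenic, 3212 bp from the TSS, with 65.2 and 23.4, and that of Cyt-c-p was listed only in replicate 2, at 66.2. Signals were within a few units of each other between replicates at Mtpbeta. Among the genes of this paragraph listed in both replicates, they differed most at Adk3 and Coq7, and Cyt-c-p has no replicate 1 value to compare.

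Others of the 20 lay away from promoters. The how region (held out wings, an RNA-binding protein of muscle) was intronic, 7133 bp downstream of a TSS, with signals of 44.7 and 44.2. The dy region (dusky, a ZP-domain protein of wing cells) was intronic with 46.2 and 38.2. The intronic Pdp1 region printed above had 36.3 and 45.9. The region nearest Imp (an RNA-binding protein) was intergenic with 42.4 and 40.5, and that nearest Eip75B (an ecdysone-induced nuclear receptor) was intergenic, 12609 bp from the TSS, with 38.2 and 45.7. The remaining regions lay nearest tmod, Sys1, CG12290, CG43658, CG10904, mtgo, CG4080, CtsL1 (a cathepsin L protease) and CG12991. Ranks within a replicate list went from 1259 to 11028 in replicate 1 and from 1164 to 11515 in replicate 2 among those listed.

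Nearly all next-ranked candidates appeared in both replicate lists, but few stood high in both. Both lists held 2237 of them (91.9%), against 2394 reproducible peaks (98.4%) and 1940 following candidates (79.7%). Replicate 1 alone listed 38 and replicate 2 alone 158. Within the top of each replicate list, as deep as the reproducible list is long, stood 12 next-ranked candidates in both replicates, 321 in replicate 1 only, 356 in replicate 2 only and 1744 (71.7%) in neither. Of reproducible peaks, 1669 were at the top of both and 42 of neither. The combined list is made from both replicates, so these counts describe the selection and were not tested. The count of 12 fell to 6 when at least 50% of the candidate had to overlap, or its summit had to lie inside the replicate region. The highest in both, named after its values were seen, was nearest CG10098, at ranks 325 and 355, and its summit lay 248 bp from a reproducible summit. A rank here is that of the strongest replicate region sharing 1 bp or more, so these ranks can belong to the neighbouring reproducible peak.

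The replicates ranked these regions differently from each other. Among those in both lists the median rank was 4365 in replicate 1 and 4526 in replicate 2, and the log2 ratio of the replicate signals had an SD of 0.69, against 0.60 in reproducible peaks. Across the 2237 regions in both lists the rank correlation between the replicate signals was −0.45, a description only, since the regions were selected within a narrow range of a combined signal to which both replicates contribute. The most unequal toward replicate 1 lay nearest CG6168 (rank 1137 in replicate 1 and 25522 in replicate 2), gce (germ cell-expressed, a juvenile hormone receptor; 1003 and 21374) and Trpm (a cation channel; 1437 and 29129). The most unequal toward replicate 2 lay nearest CG3625 (25381 and 1205), Cftr (24050 and 1144) and kel, which encodes the ring canal protein kelch (23954 and 1147). Both sets of extremes were taken among regions in both lists. Regions listed in 1 replicate only were left out, among them that of Tlk, at rank 892 in replicate 2.

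**Figure D1:**
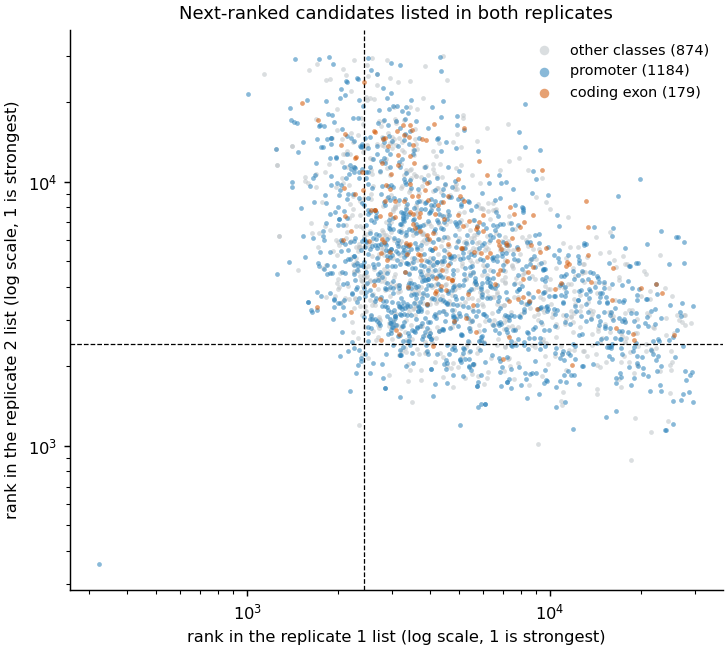
Ranks of the next-ranked candidates that both replicates list, replicate 1 on the x axis and replicate 2 on the y axis (log scales), coloured by the class of the summit, with dashed lines at the number of reproducible peaks. Inside both dashed lines stood 12 candidates, and coding exon candidates were higher in replicate 1, with a median rank of 4194 against 6061 in replicate 2.

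More than any other class, next-ranked candidates lay at promoters, but less so than reproducible peaks and more so than following candidates. Promoter means here that the summit was at most 1 kb from a protein-coding TSS. Promoters took 1296 next-ranked candidates (53.3%, 95% Clopper-Pearson interval 51.3 to 55.3%), against 66.4% of reproducible peaks and 42.4% of following candidates. The log2 odds ratio was −0.79 (95% interval −0.96 to −0.63) against reproducible peaks, with an adjusted p = 3.7e-20 by Fisher's exact test (two-sided, Benjamini-Hochberg over 6 classes), and 0.63 (0.47 to 0.79, adjusted p = 1.3e-13) against following candidates. In the rank bands of the replicate lists the promoter share was 42.8% in replicate 1 and 57.1% in replicate 2 for the band next below the top of that list, against 66.3% and 66.6% for the top and 32.4% and 49.2% for the following band. The mean was 49.9% ± 10.2, against 66.4% ± 0.262 and 40.8% ± 11.9 (SD, n = 2 replicates). Both directions held within each replicate, with a log2 odds ratio of −1.39 against the strongest regions without replicate 2. The replicates differed from each other by more than the step to the following band. Here and below, a value without 1 replicate compares only bands of the other replicate's list. Its strongest regions stand for reproducible peaks, and the bands below them for next-ranked and following candidates. Tests over regions treat each region as independent, which neighbours and regions of 1 library are not, and intervals of shares cover counting error only.

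Within promoters the summits also sat differently. The comparisons of side and distance were chosen after the values were seen. Of the 1296 promoter summits, 769 (59.3%) lay upstream of the nearest TSS, against 78.4% for reproducible peaks and 46.3% for following candidates. The log2 odds ratios were −1.31 (95% interval −1.55 to −1.08, adjusted p = 3.8e-28, Fisher's exact test, 4 comparisons) and 0.76 (0.52 to 1.00, adjusted p = 4.4e-10). In replicate 1 the upstream share was 57.6%, against 80.3% in its strongest regions and 44.0% in the following band. In replicate 2 it was 51.5%, against 73.3% and 45.5%. Of all summits, 546 next-ranked candidates (22.4%) lay within 100 bp of a TSS, against 33.2% of reproducible peaks and 12.9% of following candidates (log2 odds ratios −0.78, adjusted p = 7.8e-17, and 0.96, adjusted p = 7.7e-18, Fisher's exact test). The median distance to a TSS was 780 bp, against 250 and 1455 bp.

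**Figure D2:**
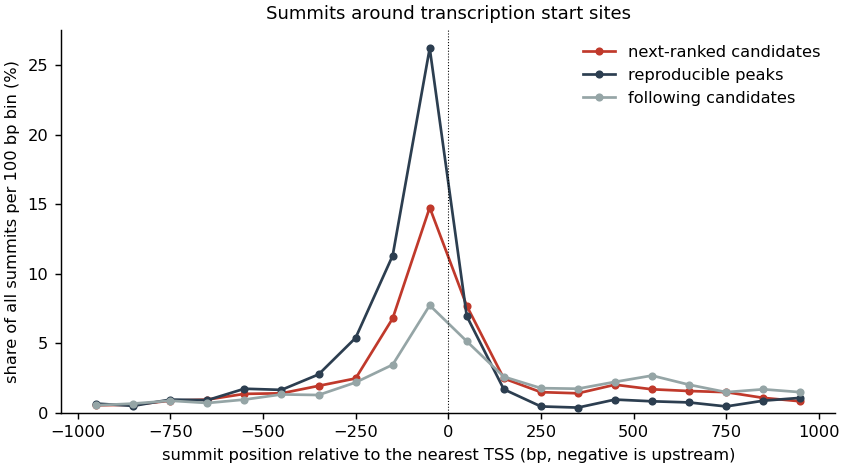
Share of all summits in each 100 bp bin around the nearest TSS (x axis, bp, negative is upstream) for next-ranked candidates, reproducible peaks and following candidates. The bin just upstream held 14.8% of next-ranked candidates, against 26.2% of reproducible peaks and 7.73% of following candidates, while the bin just downstream held 7.69%, 6.95% and 5.14%.

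Of the 6 classes, coding exons set next-ranked candidates furthest apart from reproducible peaks. They held 191 summits (7.85%), against 10 reproducible summits (0.411%) and 381 following summits (15.7%). The log2 odds ratio was 4.30 (95% interval 3.40 to 5.20, adjusted p = 2.8e-45) against reproducible peaks and −1.12 (−1.39 to −0.86, adjusted p = 1.3e-16) against following candidates, by Fisher's exact test. The share differed widely between replicate bands, at 14.8% in replicate 1 and 4.73% in replicate 2, against 1.40% and 0.452% in their strongest regions and 19.9% and 10.4% in the following bands. Of the 191, 19 stood at the top of the replicate 1 list and 5 at the top of the replicate 2 list. Their windows were GC-rich, with a median GC content of 60.7%, against 42.8% over all next-ranked candidates, and the part that base composition played in this share was not tested.

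The strongest coding exon candidates were in named genes with varied roles. The Tlk region printed above had a signal of 84.5 and was listed only in replicate 2, at 75.6 and rank 892. The region nearest PH4alphaNE1 had a summit in a coding exon of CG31371, with signals of 45.1 and 40.6 in replicates 1 and 2. The RpL13A region (a protein of the large ribosomal subunit) had 39.8 and 45.8, with its summit 1096 bp downstream of the TSS. Both of these stood in both lists, while Tlk did not.

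Introns held 606 next-ranked candidates (24.9%), against 21.0% of reproducible peaks and 25.9% of following candidates. The first difference passed the test (log2 odds ratio 0.32, 95% interval 0.13 to 0.52, adjusted p = 0.0024, Fisher's exact test) and the second did not (−0.08, −0.26 to 0.11, adjusted p = 0.43). The value against the strongest regions was 0.49 without replicate 2. The 1216 strongest next-ranked candidates alone gave 0.25 against reproducible peaks, with an adjusted p = 0.073 by Fisher's exact test. Intergenic sequence held 298 (12.2%), against 11.4% and 14.3%, with log2 odds ratios of 0.12 (−0.13 to 0.37, adjusted p = 0.37) and −0.26 (−0.50 to −0.02, adjusted p = 0.069, Fisher's exact test). The intergenic values depended on the replicate. Against the strongest regions it was 0.48 without replicate 2 (adjusted p = 1.6e-04, Fisher's exact test). Against following candidates it was −0.017 without replicate 1 and passed without replicate 2 (−0.29, adjusted p = 0.016), in the plain rank band (−0.31, adjusted p = 0.028), with a 2 kb promoter window (−0.31, adjusted p = 0.046) and with any overlap of region and promoter (−0.29, adjusted p = 0.041), all by Fisher's exact test.

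The 3' UTR held 32, among them 1 in Antp, a Hox gene, with a signal of 81.7, and the 5' UTR held 10, among them 1 in Teh1. Neither UTR class passed the test in either comparison of the combined lists. The 3' UTR share passed against the strongest regions without replicate 1 (log2 odds ratio 1.07, adjusted p = 0.018, Fisher's exact test), and the value was 0.00 without replicate 2. Against reproducible peaks it passed with a promoter window of 500 bp (1.03, adjusted p = 0.021, Fisher's exact test). The 5' UTR share passed against the following band without replicate 2 (−1.18, adjusted p = 0.016, Fisher's exact test).

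The next-ranked candidates were the first step of a gradient in promoter share and replicate listing that went on down the list. Over the 12 blocks of candidates that overlap no reproducible peak, the promoter share was 53.3% in the first, 42.4% in the second, 37.9% in the third and 27.4% in the last. The coding exon share was 7.85%, 15.7% and 18.7% in the first 3 blocks and 17.9% in the last, and the median GC content was 42.8%, 48.8% and 49.8%. The share listed in both replicates was 91.9%, 79.7%, 67.1% and, in the last block, 9.13%. The promoter share thus fell further below the next-ranked candidates. The coding exon share rose over the first 3 blocks and then stayed between 18.7% (block 3) and 21.9% (block 8) as far as block 11. From block 3 on, the median GC content lay between 48.3% and 49.8%.

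**Figure D3:**
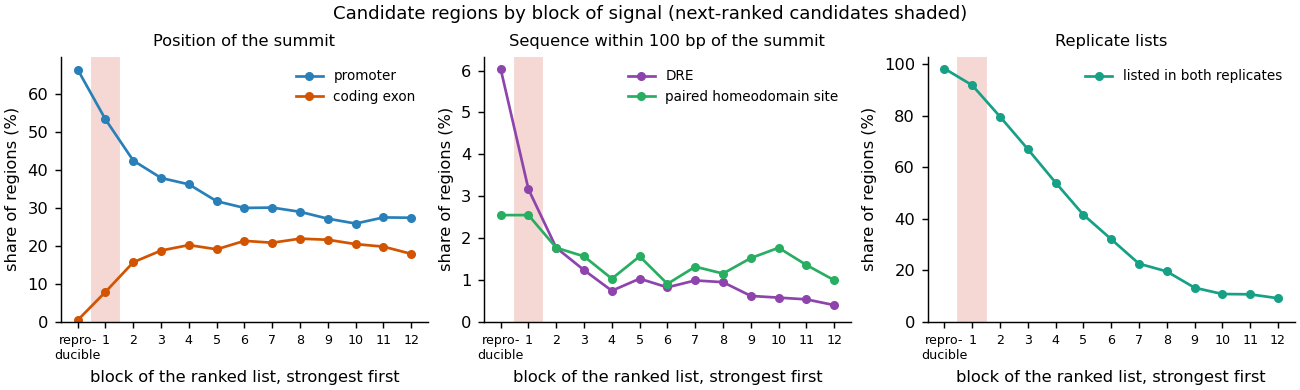
Shares of regions (y axes, %) in reproducible peaks and in equal blocks of candidates by falling signal (x axis; the last block holds the remaining 504), with next-ranked candidates shaded as block 1: summit classes, motifs, and listing in both replicates. The promoter share was 53.3% in block 1, against 66.4% in reproducible peaks and 42.4% in block 2.

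Next-ranked candidates were spread over all large arms. They numbered 424 on 2L, 494 on 2R, 502 on 3L, 583 on 3R, 419 on X and 11 on chromosome 4. Of those on the 5 large arms, 17.3% were on X, against 18.0% of reproducible peaks and 13.1% of following candidates. The difference from following candidates passed the test (log2 odds ratio 0.47, 95% interval 0.24 to 0.69, adjusted p = 1.3e-04, Fisher's exact test) and that from reproducible peaks did not (−0.07, −0.28 to 0.14, adjusted p = 0.52). Each replicate alone gave another answer. Without replicate 1 the value against following candidates was 0.12 (adjusted p = 0.53, Fisher's exact test), and without replicate 2 the value against the strongest regions was −0.65 (adjusted p = 1.3e-08). Of the 419 on X, 76 stood at the top of the replicate 1 list and 39 at the top of the replicate 2 list. The embryos were of mixed sex, and the part that X copy number played was not tested.

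Most next-ranked candidates lay far from any reproducible peak. The median distance between summits was 10113 bp, 169 (6.95%) lay within 1 kb of a reproducible summit and 785 (32.3%) within 5 kb, against 137 (5.63%) and 723 (29.7%) of following candidates. Overlap is barred by the rule, so these distances are a description. Among promoter candidates 111 of 1296 lay within 1 kb, and among coding exon candidates 2 of 191. Another next-ranked summit lay within 1 kb of 193 of them (7.93%), and 55 overlapped another next-ranked candidate, so that some share a site.

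DRE was less common than in reproducible peaks and more common than in following candidates. Each of 11 motifs was searched in both strands of the window that reaches 100 bp either side of the summit. DRE (TATCGATA) was present in 77 next-ranked candidates (3.16%), against 6.04% of reproducible peaks and 1.77% of following candidates. The log2 odds ratio was −0.97 (95% interval −1.38 to −0.57, adjusted p = 7.3e-06, Fisher's exact test, 11 motifs) against reproducible peaks and 0.85 (0.31 to 1.40, adjusted p = 0.0047) against following candidates. Of the 77, 74 were at promoters, where the share was 5.71%, against 9.04% at reproducible promoters. Windows of the same length at all 19252 TSSs held DRE in 6.45% of cases. In replicates 1 and 2 the share in the band was 2.55% and 3.12%, against 5.30% and 5.67% in the strongest regions and 1.32% and 2.38% in the following bands. The difference from following candidates lost its call at promoters alone (0.62, adjusted p = 0.072, Fisher's exact test), without replicate 1 (0.40, adjusted p = 0.28) and in a logistic model with GC content (0.39). The difference from reproducible peaks lost it in the 1216 strongest candidates (−0.55, adjusted p = 0.055, Fisher's exact test).

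The 5 strongest candidates with a DRE lay at promoters. CtsL1 had signals of 24.7 and 54.9 in replicates 1 and 2, with the summit just upstream. PolE4, a subunit of DNA polymerase epsilon, had 36.4 and 51.0, 52 bp upstream. Rab40, printed above, had 54.9 and 40.2. The splicing regulator su(w[a]) had 42.2 and 37.7, and PolA1, the catalytic subunit of DNA polymerase alpha, had 25.8 and 58.3, 33 bp upstream. All 5 were listed in both replicates.

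The motif of the tagged protein's own class was in the same number of next-ranked candidates and reproducible peaks in the combined lists, and in a lower share of the band than of the strongest regions in each replicate, a difference that did not pass the test. The paired homeodomain site, TAAT and ATTA with 2 or 3 bases between them, was in 62 next-ranked candidates (2.55%), against 62 reproducible peaks (2.55%) and 43 following candidates (1.77%). The log2 odds ratio was 0.00 (95% interval −0.51 to 0.51, adjusted p = 1) against reproducible peaks and 0.53 (−0.03 to 1.10, adjusted p = 0.12) against following candidates, by Fisher's exact test. In replicates 1 and 2 the share in the band was 1.89% and 1.97%, against 2.63% and 2.71% in the strongest regions. The log2 odds ratio against the strongest regions was −0.47 without replicate 1 (adjusted p = 0.23, Fisher's exact test) and −0.48 without replicate 2 (adjusted p = 0.14). Windows at all TSSs held it in 2.06% of cases, and windows 500 bp to the side of the next-ranked summits in 2.71%. With windows reaching 200 bp from the summit the difference from following candidates was 0.61 (adjusted p = 0.0054, Fisher's exact test), and in a logistic model with GC content it was −0.038. The strongest regions with the site lay in introns of Pdp1 (signal 85.2), schlank (84.8, nearest TSS Josd), Grip (83.7, nearest TSS CG5966) and trx (83.5, a trithorax-group methyltransferase), and at the promoter of CG14757 (84.7).

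Among the other motifs, Ohler motif 1 (GGTCACACT) was in 58 next-ranked candidates, against 58 reproducible peaks and 32 following candidates, and Ohler motif 6 (GGTATTTT) in 65, against 78 and 33. Both differed from following candidates (log2 odds ratios 0.86, adjusted p = 0.014, and 0.99, adjusted p = 0.0047, Fisher's exact test) and not past the threshold from reproducible peaks (0.00, 95% interval −0.53 to 0.53, and −0.27, −0.75 to 0.21). The difference from following candidates for Ohler motif 6 was 0.40 without replicate 1 (adjusted p = 0.31, Fisher's exact test). Both calls were lost at promoters alone (0.46 for Ohler motif 1 and 0.51 for Ohler motif 6, adjusted p = 0.22 for each, Fisher's exact test) and in windows reaching 50 bp (0.87, adjusted p = 0.10, and 0.95, adjusted p = 0.072).

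The TATA box (TATAAA) was in 18.9%, against 25.6% and 13.1%, and CGATA, which lies inside DRE, in 27.2%, against 35.0% and 22.4%. TAATTA was in 9.08%, against 11.3% and 6.66%. These 3 passed the test both ways in the combined lists. Windows 500 bp to the side of the next-ranked summits held the TATA box in 22.4%, CGATA in 22.8% and TAATTA in 12.3% of cases. Only CGATA was thus more common at the summits than beside them. Windows at all TSSs held them in 26.9%, 37.1% and 9.39%. TAATTA lost its call against reproducible peaks without replicate 1 (−0.30, adjusted p = 0.086, Fisher's exact test) and against following candidates without replicate 2 (0.045, adjusted p = 0.82). The TATA box gave −0.91 against the strongest regions without replicate 2 and 0.33 against the following band without replicate 1, and CGATA −0.23 against the strongest regions without replicate 1. Outside promoters CGATA lost its call against reproducible peaks (−0.31, adjusted p = 0.33, Fisher's exact test) and against following candidates (0.038). The Bicoid-like TAATCC was in 4.11%, against 6.33% and 4.52%, and passed against reproducible peaks only (log2 odds ratio −0.65, adjusted p = 0.0017, Fisher's exact test). That call was lost without replicate 1 (−0.011, adjusted p = 1, Fisher's exact test), without replicate 2 (−0.42, adjusted p = 0.052), in windows reaching 200 bp (−0.31, adjusted p = 0.052) and outside promoters (−0.44, adjusted p = 0.33). The GAGA repeat (GAGAGAG, 5.51%), the Zelda site (CAGGTAG, 1.07%) and the E-box CACGTG (3.82%) passed in neither comparison of the combined lists. Without replicate 2, GAGA passed against the following band (0.50, adjusted p = 0.038, Fisher's exact test) and the Zelda site against the strongest regions (1.07, adjusted p = 0.018). Candidates over 1 kb from reproducible peaks held the Zelda site less often than following candidates (−0.93, adjusted p = 0.031, Fisher's exact test).

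The median GC content of the windows was 42.8%, against 38.8% and 48.8%. With GC content in a logistic model the calls were lost for the TATA box, at log2 odds ratios of −0.071 and 0.029, and for TAATTA, at 0.064 and −0.057. They were also lost against following candidates for Ohler motif 1, at 0.59, Ohler motif 6, at 0.62, and CGATA, at 0.19. No motif searched was found in 1069 next-ranked candidates (43.9%), against 818 reproducible peaks (33.6%).

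**Figure D4:**
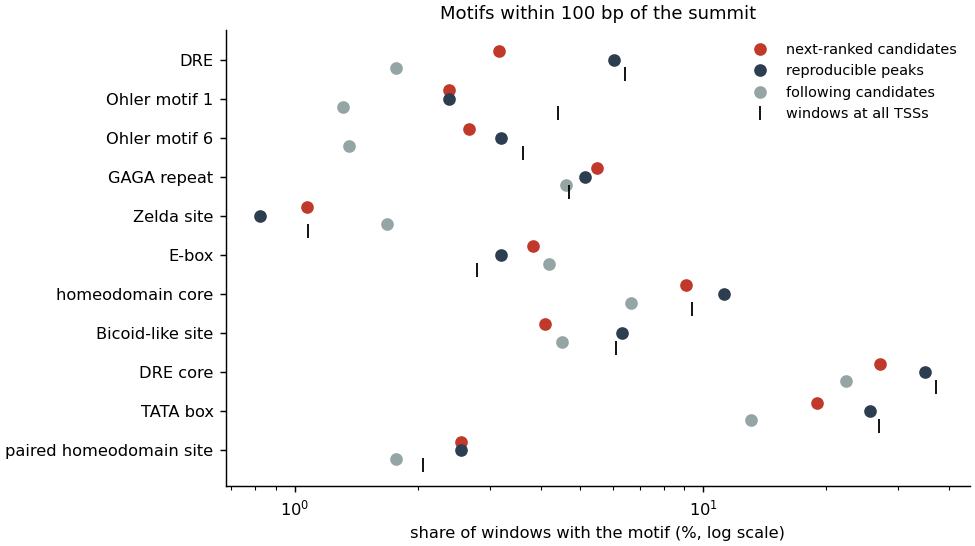
Share of windows holding each motif (x axis, %, log scale) around summits of next-ranked candidates, reproducible peaks and following candidates, with the share at all TSSs as a black tick. The homeodomain core is TAATTA and the DRE core is CGATA, and DRE was in 3.16% of next-ranked candidates, against 6.04% of reproducible peaks and 1.77% of following candidates.

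A gene with a summit at most 1 kb from one of its TSSs was counted as marked. Next-ranked candidates marked 1629 of 13945 protein-coding genes (11.7%), against 2199 (15.8%) for reproducible peaks. Of the marked genes 239 were shared, which is 14.7% of those marked by next-ranked candidates and 10.9% of those marked by reproducible peaks. The next-ranked candidates thus marked 1390 genes that no reproducible summit marks, which is 11.8% of the 11746 such genes, with a median signal of 68.0. Of the 1390, 761 (54.75%) were also marked by the strongest regions of replicate 1, taken as deep as reproducible and next-ranked regions together. Those of replicate 2 marked 910 (65.47%), and both marked 416 (29.9%). Of all protein-coding genes, regions of that depth marked 3283 (23.5%) in replicate 1 and 3589 (25.7%) in replicate 2. These shares take in genes with a reproducible summit, and the share among genes without one was not counted. The combined list is made from both replicates, so these counts describe the selection. Each list is read against the 11.8%, the lists were chosen with earlier results known, and their counts were not tested. Of the 75 list genes added, 25 have their region nearest the TSS of another gene, and such a region cannot be given to 1 gene alone.

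Several signalling pathways gained genes. In the Wnt and Hedgehog list 9 of 24 genes with no reproducible summit were marked (37.5%), with a median signal of 64.4. The promoter region of arr, the Wnt co-receptor, had 30.4 in replicate 1 and 48.2 in replicate 2. Axn, a scaffold of the destruction complex, had 41.0 and 31.2, disp, which releases Hedgehog, 29.3 and 28.9, and boi, a Hedgehog co-receptor, 26.1 and 36.5. The other 5 were Wnt6, cos, ihog, Apc and arm. All 9 were listed in both replicates, as were 91.9% of all next-ranked candidates. The bands of replicate 1 and replicate 2 marked 3 of these 9 genes each, and both bands marked 1. Of all protein-coding genes these bands marked 9.41% and 12.6%. The 9 genes were chosen through the combined list, which is made from both replicates, so these counts describe the selection. A band leaves out the top of its list. The Wnt6 region stood at that top in replicate 1 (rank 2135), and the arr region in replicate 2 (rank 2245). The regions of Axn, cos and Apc lay nearest the TSSs of RpS28a, Dhx15 and spg.

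In the BMP and activin list 5 of 14 were marked (35.7%), with a median signal of 61.0. The region of shn, a zinc-finger factor of the pathway, had 43.4 in replicate 1 and 23.9 in replicate 2, and that of put, the type II receptor, had 24.8 and 37.4, nearest the TSS of His4r. Med, the co-Smad, had 38.5 and gbb, a ligand, had 47.6, both in replicate 2 and unlisted in replicate 1. The fifth, Smox, had 22.5 and 37.0. The band of replicate 2 marked 4 of these 5 genes and that of replicate 1 none, against 12.6% and 9.41% of all protein-coding genes. A band leaves out the top of its list. The shn region stood at that top in replicate 1 (rank 2343), and the gbb region in replicate 2 (rank 2308). These counts, too, describe the selection.

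The Notch list added 4 of 15 genes (26.7%). The region of neur, a ubiquitin ligase for Delta, had 38.3 and 43.7 in replicates 1 and 2, with its summit nearest the TSS of hyx. Tom, a Bearded-family inhibitor, had 58.5 and 22.2, the repressor E(spl)mbeta-HLH had 28.8 and 41.0, and fng, a glycosyltransferase that modifies Notch, had 17.0 and 49.0. The list of EGFR, FGF and Ras genes added 2 of 18 (11.1%), sty, the feedback inhibitor Sprouty, with 50.5 and 34.7, and stumps, an FGF adaptor, with 31.2 and 34.6. Of these 6 regions, those of Tom and fng differed most between replicates.

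Replication and cell cycle genes added 6 of 24. The factor E2f1 had signals of 32.1 in replicate 1 and 33.1 in replicate 2, fzr, an activator of the anaphase-promoting complex, 26.1 and 34.1, the Cdk inhibitor dap 17.3 and 39.4, and CycE 19.5 and 47.9. E2f2 and Mcm5 were the others, with regions nearest the TSSs of Mpp6 and Art1. PolA1, a DRE promoter described above, was left out of this count because the list spells it Pola1, and with it the count would be 7 of 25 (28.0%). Insulator proteins added 2 of 7, pita with 46.8 and 39.8 and ZIPIC with 29.4 and 35.7. The Polycomb and trithorax groups added 1 of 12 (8.33%), Su(z)2 with 19.2 and 48.9, after 14 of 26 with a reproducible summit.

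Housekeeping complexes each gained some genes. Of cytosolic ribosomal proteins, 67 of 88 already had a reproducible summit and 4 of the other 21 were added (19.0%): RpS26, with 40.1 and 35.6 in replicates 1 and 2, RpS28a, RpL12 and RpS28-like (nearest numb). Mitochondrial ribosomal proteins added 10 of 56 (17.9%), led by mRpS21 (61.0 and 19.7), mRpS25 (38.4 and 40.7), mRpS31 (24.0 and 60.3) and mRpL11 (43.7 and 33.7, nearest the TSS of HtrA2). Proteasome subunits added 7 of 43 (16.3%), led by Rpn13, Prosalpha3, Rpt5 and Rpn8, of which Rpn13 and Rpt5 have regions nearest the TSSs of CtsL1 and RanBP3. V-ATPase subunits added 4 of 23 (17.4%), Vha44 (nearest Hmgs), VhaM9.7-c, Vha26 (nearest noi) and VhaAC45. Of the 4 mitochondrial genes with values, mRpS25 was the most even between replicates.

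Other lists of basic machinery added 2 to 4 genes each. Aminoacyl-tRNA synthetases added 3 of 26 (11.5%), TrpRS, ValRS (nearest Kdm4B) and HisRS (nearest CG6470). Translation factors added 4 of 35 (11.4%), eIF2D, eIF3f1, eIF2Balpha (nearest Vps13B) and eRF3, Mediator 2 of 18 (11.1%), MED31 (nearest CG9775) and MED17 (nearest CG12321), and the TBP-associated factors 2 of 12 (16.7%), Taf1 and Taf13 (nearest nesd). Heat shock genes added 2 of 19, Hsp22 and Hsp67Bc, which share 1 region that only replicate 2 listed, at 42.9.

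Lists of developmental regulators and of genes of differentiated cells added 1 or 2 genes each, with shares below the 11.8% of all genes except for Hox genes. Hox genes added 1 of 8 (12.5%), Dfd, which specifies head segments, with 38.9 in replicate 1 and 22.1 in replicate 2. The list of PRD-class genes, to which CG9876 belongs, added 1 of 24 (4.17%), with 33.7 and 33.2. It was Poxm, a Pax gene with a paired domain and no homeodomain. Segmentation genes added 2 of 26 (7.69%), the pair-rule repressor hry with 26.8 and 46.9 and the homeobox gene en with 16.5 and 33.3. Neuronal genes added 1 of 19 (5.26%), Syx1A, muscle structural genes 2 of 21 (9.52%), Zasp52 and Tm1, and chemoreceptors 1 of 177 (0.565%), Ir60e, with 38.4 and 31.7, nearest the TSS of CG13585. The shares of short lists rest on 1 or 2 genes each.

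**Figure D5:**
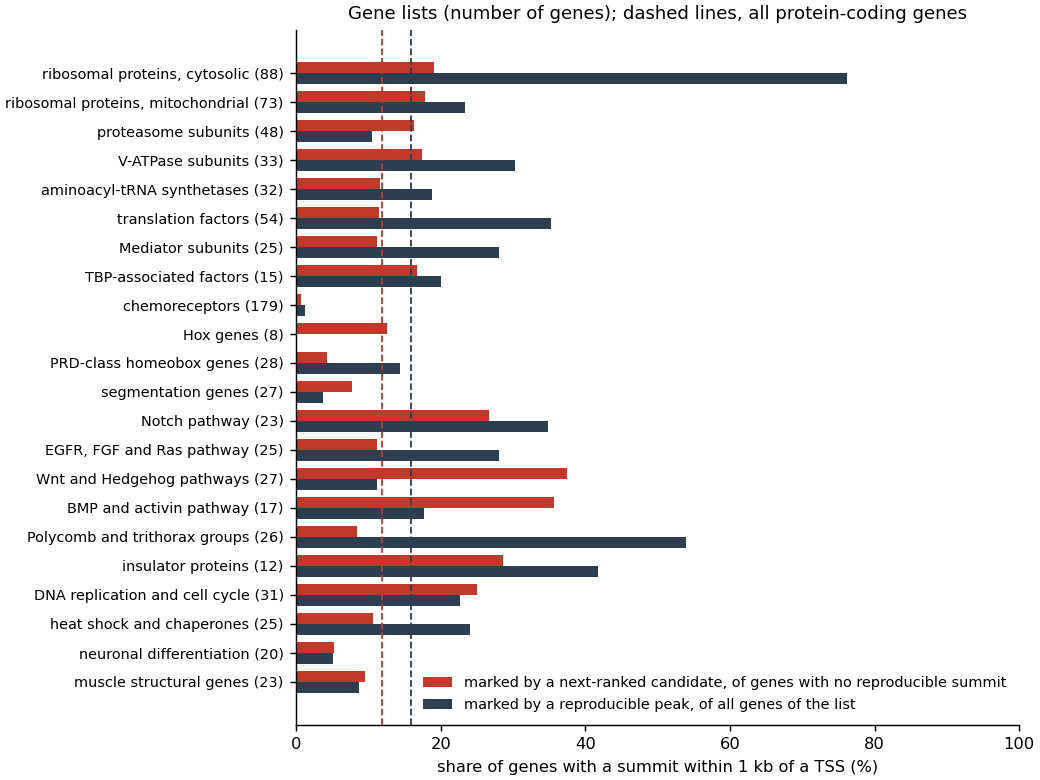
Share of genes (x axis, %) of each list (number of genes in brackets) marked by a next-ranked candidate, of those with no reproducible summit, and marked by a reproducible peak, of all genes of the list. Dashed lines show all protein-coding genes, at 11.8% for next-ranked candidates and 15.8% for reproducible peaks, and the Wnt and Hedgehog list reached 37.5% with next-ranked candidates.

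The CG9876 gene itself (chromosome 2R, 23090100 to 23094266, − strand) held no next-ranked candidate at its TSS. A reproducible peak lay at −2905 bp from its start, with a signal of 88.4 and rank 2313. Within 5 kb of the gene, only the regions nearest CG9877 were next-ranked candidates, with summits 1154 and 951 bp downstream of its TSS and signals of 62.9 and 62.1. Following candidates lay 433 bp downstream of the TSS of CG13538, with 54.2, and at −654 bp from the TSS of CG9876, with 49.7.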

How the data were processed

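Candidate lists were made by the authors from alignments and a control, 1 list per replicate and 1 from both together. The reproducible (optimal IDR) list was derived from those 3 lists, per the deposited text files. Aligner, peak caller and depth: not given in the sources used here. Column 7 of the deposited dm6 lists is the authors' signal, a score in a unit not named, used only to rank, describe and filter regions within a list. Column 9 is −log10 of the authors' q-value, per the file format. The dm3 lists were not used.

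Each of the 3 sets of regions compared holds 2433. Coordinates count from 1. The RefSeq dm6 genome and Ensembl release 115 gene models on that assembly gave 13945 protein-coding genes. Summits at most 1 kb from a TSS were promoter. The others were assigned, first match first, to the 5' UTR, a coding exon, the 3' UTR, an intron or intergenic sequence. Fisher's exact test (two-sided) was adjusted by the Benjamini-Hochberg method over 6 classes, 11 motifs or 2 comparisons of the X share, with a threshold of 0.05. For the odds ratios 0.5 was added to every cell, and their 95% intervals are Wald intervals. The same rank bands of each replicate list give replicate values (n = 2). Values without 1 replicate compare these bands within the other replicate's list alone. CGATA lies inside DRE, and TAATTA can overlap the paired homeodomain site.

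Of 22 gene lists, some were built from symbol patterns and take in paralogs such as Prosbeta5R2, and 1 name, Pola1, matched no symbol exactly (the gene models have PolA1, and a count with it was added after seeing the data). The members and lists were chosen with earlier results of these data known. Named genes were those nearest the 20 strongest candidates and the edges, those with the most unequal ranks, up to 4 added genes per list by signal, and CG9876 with 5 kb on either side. The strongest of each class, the strongest with a motif, the other added genes and gene bodies were named after values were seen. Alternatives were other promoter and motif windows, region overlap, the 1216 strongest candidates, those over 1 kb from reproducible peaks, the plain rank band, promoter or other summits alone, a GC model and each replicate alone.

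Tools were Python 3.11.15, scipy 1.17.1, statsmodels 0.14.6, numpy 2.4.6, matplotlib 3.10.9 and pandas 2.3.3. Fisher's exact test with its adjustment was tested on simulated counts of independent regions, with and without a planted difference. The motif search and the overlap rule were tested on short made-up examples. Other steps were not tested in this way.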

Additional observations from a re-analysis of the deposited data

How the results depend on the processing

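Values are log2 odds ratios, next-ranked candidates over the other list. Those without 1 replicate use the matching bands of the other replicate's list alone. The promoter and coding exon comparisons, and the upstream and 100 bp shares (alternatives for these 2 added after seeing the data, replicates alone only), kept direction and side of the threshold in every alternative run. Promoter values, replicates alone included, lay between −1.39 and −0.54 against reproducible peaks and between 0.46 and 0.88 against following candidates. Against the strongest regions, values without 1 replicate ranged from −1.09 to −0.89 for DRE and from −0.65 to −0.072 for X. Against the following band they ranged from 0.40 to 0.96 for DRE and from 0.12 to 0.29 for X. The calls for DRE and for X against the following band were lost without replicate 1. X passed against the strongest regions without replicate 2, but not without replicate 1. Some directions against the following band turned from those of the combined lists. These values ranged from −0.14 to −0.12 for the 3' UTR, 0.064 to 0.21 for the E-box, −0.21 to 0.28 for the Bicoid-like site and −0.21 to 0.15 for the Zelda site.

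DRE against reproducible peaks gave −0.55 in the 1216 strongest candidates and 0.75 outside promoters, where 3 candidates held it. Against following candidates it gave 0.62 at promoters, −0.062 outside them and 0.39 with GC. The paired homeodomain site against following candidates gave 0.61 within 200 bp, past the threshold, and −0.038 with GC. X against reproducible peaks gave 0.042 in the 1216 strongest. The count at the top of both replicate lists was 6 under either stricter overlap rule. Other directions turned, past the threshold only for GAGA within 200 bp against reproducible peaks (−0.35). GAGA gave −0.047 with GC there, and −0.0069 outside promoters against following candidates. Ohler motif 6 against reproducible peaks gave 0.047 in the 1216 strongest, 0.27 outside promoters and 0.011 with GC. The E-box against following candidates gave 0.036 in the 1216 strongest, 0.019 at promoters and 0.073 with GC, and against reproducible peaks −0.028 with GC. TAATTA with GC gave 0.064 against reproducible peaks and −0.057 against following candidates, the Zelda site −0.0090 outside promoters against reproducible peaks, and introns 0.025 with a 500 bp window against following candidates. Causes were not tested. Read depth is not given, so how far it limits these shares is unknown.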

Other observations

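Some long genes held several next-ranked candidates within their bodies, counted after the values were seen. The gene jing, a zinc-finger factor of border cells and glia, held 9 and no reproducible peak in a body of 120 kb. The genes bun, kirre, px and shn held 7 next-ranked candidates each, with 2, 8, 3 and 4 reproducible peaks. Per kb of gene this was 0.0751 for jing, 0.0769 for bun, 0.0178 for kirre, 0.103 for px and 0.12 for shn. The large arms as a whole held 17.8 (X) to 19.5 (2R) next-ranked candidates per Mb, and kirre was at that level. Mob2, with 6, also held no reproducible peak. Among receptors, the Wnt receptor gene fz2 and the BMP receptor gene tkv held 4 next-ranked candidates each and no reproducible peak, and the insulin receptor gene InR held 5 with 2 reproducible peaks. Gene length and the number of candidates were not separated by a test.

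Annotated ncRNA genes held 105 next-ranked summits (4.32%), against 123 reproducible summits (5.06%) and 103 following summits (4.23%). A tRNA gene held 1 and snRNA genes 0, against 0 and 5 reproducible summits. Annotated transposable elements held 8, against 3.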
